A study of Mus musculus with 5 samples.

Results

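The endothelin genes described here are Edn1, Ednra, Ednrb and Ece1, measured in whole mouse lung. A probe set was taken where the platform annotation maps it to 1 of these genes and to no other gene. This gave 5 probe sets, of 20380 that carry a single gene, and they cover 3 of the 4 genes: 1 probe set for Edn1, 2 for Ednrb and 2 for Ece1. No probe set was assigned to Ednra by that rule, so no level of Ednra is given.

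Endothelin-1 is a strong vasoconstrictor peptide. Edn1 encodes its precursor, which is cut first to big endothelin-1 and then, by the membrane metalloprotease endothelin-converting enzyme 1 (Ece1), to the active peptide. The receptor encoded by Ednra sits on smooth muscle and drives contraction; the receptor encoded by Ednrb sits mainly on endothelium in the lung, where it releases nitric oxide and prostacyclin and clears the peptide, and smooth muscle carries it too. Drugs that block these receptors are used to treat pulmonary arterial hypertension.

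The lungs came from 5 conditions, each measured once on an array of RNA pooled from several animals. The induced pool was SM22-tet-BMPR2delx4+ mice on doxycycline, whose title gives 8 weeks and whose right ventricular pressure was 50 ± 8 mmHg. In these mice doxycycline switches on a dominant-negative bone morphogenetic protein receptor, BMPR2delx4+, under the smooth muscle promoter SM22. The hypoxic pool was FVB/N mice 8 weeks old, kept hypoxic for 4 weeks, also at 50 ± 8 mmHg. At a normal pressure of 30 ± 3 mmHg were wild-type FVB/N mice 8 weeks old, SM22-rtTA mice on doxycycline, which carry the activator alone, and uninduced SM22-tet-BMPR2delx4+ mice without doxycycline, both titled 8 weeks. The labels do not say whether 8 weeks in the transgenic titles is an age or a treatment, what the error of a pressure is, or how many animals a pool holds. There is no replicate array, so no difference below has a test or an error bar.

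Values are intensities after the arrays were shifted to a common median, and a noise floor was set at an intensity of 276, the median of all values. To be called higher in a raised-pressure pool, a gene had to exceed the floor, its matched control by 1.5-fold or more, and each of the 3 pools of normal pressure; lower calls required the reverse. In the other comparisons, 1.5-fold or more apart and above the floor was required, and where the mean of 2 controls was used, the value also had to lie beyond both. Of 12393 genes, 8590 exceeded the floor somewhere among the 5 pools; these are the measured genes. The SD of the log2 ratio between the SM22-rtTA and uninduced pools, over the 5904 genes that exceeded the floor throughout, was 0.34; these pools differ in genotype and doxycycline. For wild type against the mean of those pools it was 0.6. Neither is a replicate error, and the smaller is used here as the scale for the scatter between pools.

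Genes of other tissues were seen in some pools. In wild type, 11 of 11 measured kidney genes and 4 of 4 adrenal genes were above the floor, the kidney genes with a summed intensity of 50918, against 3245 to 4309 in the other 4 pools, and the kidney enzyme Miox, at 10416, was at the floor elsewhere. Skeletal muscle genes summed to 62496 in the induced pool and 17045 in the hypoxic pool, against 3961 to 5633 in the 3 normal-pressure pools. Cardiac muscle genes summed to 30841 in the induced pool and 11213 in the hypoxic pool, against 9825 to 10251 in the normal-pressure pools. Squamous epithelial genes summed to 12136 in the induced pool and 19897 in the hypoxic pool, against 1657 to 1996 in those pools. The lung itself was well represented in each pool, with the surfactant gene Sftpc between 10705 and 13366 and the endothelial cadherin Cdh5 between 3893 and 4724. Kidney makes Edn1, Ednrb and Ece1 as well as lung. The part of other tissues in the results below was not tested. A fall in whole-lung RNA can reflect fewer cells of a type or less RNA per cell, and these arrays cannot tell them apart.

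The genes lie apart in the mouse genome. On GRCm38.p6 in RefSeq, Edn1 spans chromosome 13 from 42301476 to 42307990, Ednrb chromosome 14 from 103814615 to 103844508, Ece1 chromosome 4 from 137862237 to 137965229 and Ednra chromosome 8 from 77663029 to 77724452. Because the study sets hypoxia beside a BMP receptor mutant, the Edn1 start region is shown with 2 motifs known from the human gene. They are the core of the hypoxia-inducible factor site (ACGTG) and the AP-1-like site (TGACTAA), both in capitals in the following 30 bases of the plus strand (chr13:42301495-42301524, GRCm38.p6, RefSeq), where ACGTG reads from the other strand as CACGT.

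Edn1: tgCACGTtgcctgtgggTGACTAAtcacac

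This stretch begins 19 bases after the first base of the RefSeq transcript. Both strands of the 300-base start regions, from 250 before to 50 after each start, were searched, with overlapping matches kept. ACGTG was found in 19.6% of 32851 start regions, TGACTAA in 2.35% and the GATA motif TTATCT in 11.2%. All 3 motifs were chosen because they are described for the human EDN1 promoter, so the search favours Edn1 over the other genes by design. Edn1 has 1 start region and it held all 3 motifs. The single start regions of Ednrb and Ednra held none of them. Ece1 has 4 start regions in the table, of which 1 held ACGTG and none held the other motifs. A match describes letters in a window and says nothing of whether a factor binds there.

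The ligand gene Edn1 was lowest in the hypoxic pool and highest in the uninduced transgenic pool. Its intensity was 1884 in the induced pool, 1373 in the hypoxic pool, 1648 in wild type, 1838 in SM22-rtTA and 2662 in the uninduced pool. It was above the floor in every pool. The uninduced pool stands apart at the top, 1.41-fold above the next, while neighbouring values among the other 4 pools differ by 1.03-fold to 1.20-fold, which is within the scatter between pools. From highest to lowest value Edn1 spans 1.94-fold.

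**Figure D1:**
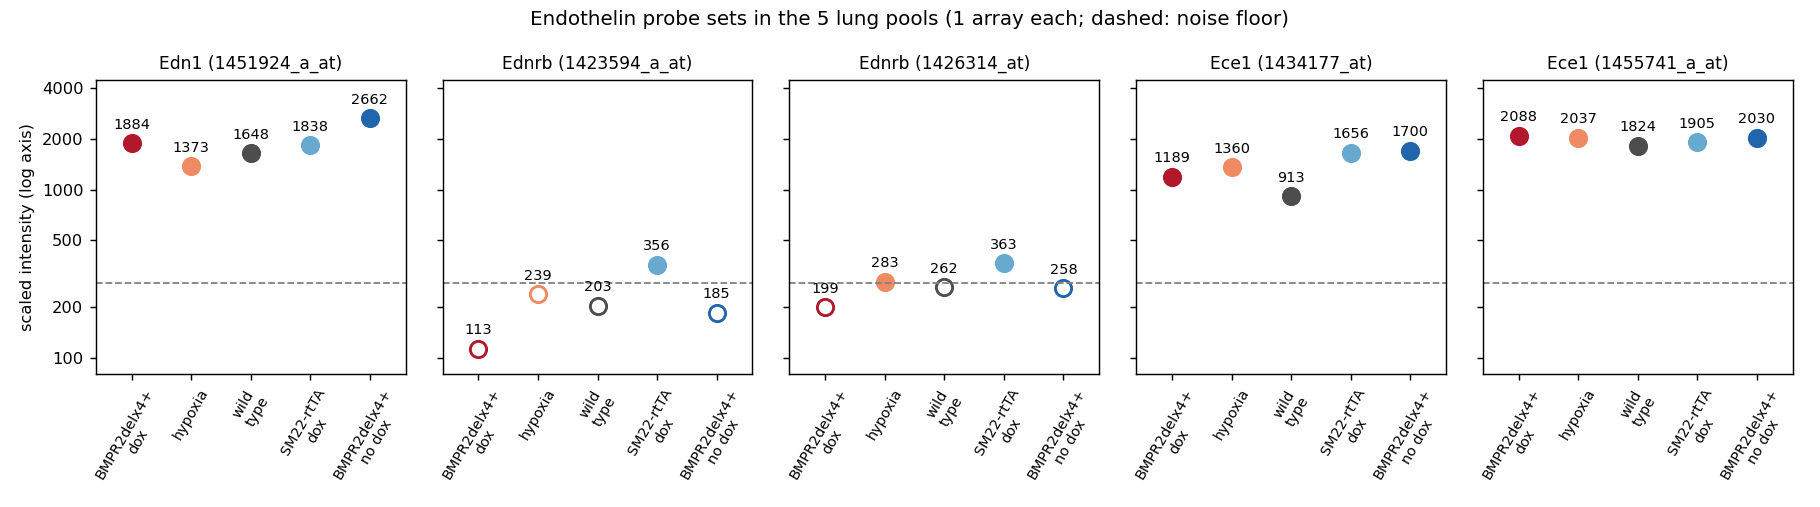
Scaled intensity (log axis) of the 5 endothelin probe sets in the 5 lung pools, 1 array each, with the noise floor dashed and open points under it. Edn1 is lowest in the hypoxic pool (1373) and highest in the uninduced pool (2662), both Ednrb probe sets are above the floor in SM22-rtTA and mostly under it elsewhere, and 1 Ece1 probe set varies while the other stays between 1824 and 2088.

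Induction of BMPR2delx4+ was first set against the same genotype without doxycycline. Edn1 was at 1884 in the induced pool and 2662 in the uninduced pool, a log2 ratio of -0.50 (0.708-fold), which is short of the 1.5-fold needed. Few genes had a lower ratio, 3.9% of those measured, and the median of all measured genes was 0.00. Of the 3 endothelin genes, 0 were called, where 3.26% of measured genes were called higher and 1.32% lower. Against SM22-rtTA, the control that also had doxycycline, the Edn1 ratio was 0.04. Of the 3 endothelin genes 0 were apart there by the 1.5-fold rule, with 9.72% of measured genes higher and 6.11% lower. SM22-rtTA itself had an Edn1 log2 ratio of -0.53 to the uninduced pool, at 1838 against 2662. The lower Edn1 of the induced lungs thus depends on which normal-pressure pool it is compared with.

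Hypoxia was set against wild type of the same strain and age. Edn1 was at 1373 in the hypoxic pool and 1648 in wild type, a log2 ratio of -0.26. This is smaller than the scatter of 0.34, and 21.7% of measured genes had a lower ratio. In this comparison 0 of the 3 endothelin genes were called, beside 4.19% of measured genes higher and 4.82% lower. In the hypoxic pool, 3 of 11 kidney, 2 of 4 adrenal and 2 of 3 liver genes were above the floor. These counts were 11, 4 and 3 in wild type, 2, 0 and 1 in the induced pool, 1, 0 and 1 in SM22-rtTA, and 2, 0 and 0 in the uninduced pool. Liver genes summed to 4570 in wild type and 1346 in hypoxia, against 829 to 928 elsewhere. Against the mean of the SM22-rtTA and uninduced pools, the Edn1 ratio was -0.69. That is 0.621-fold, and the hypoxic value lies below both controls. Edn1 was the 1 endothelin gene of 3 to pass the 1.5-fold rule there. By that rule 4.16% of measured genes were lower and 12.1% higher, and 2.5% had a lower ratio than Edn1. With values as deposited, the median of all measured genes moved to -0.12 in this comparison and 46.5% of the genes apart were higher, compared with 74.5% after scaling; Edn1 was then at -0.86.

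The low Edn1 of hypoxia rests on the uninduced pool in size, though not in direction. Hypoxia against the uninduced pool alone gave a log2 ratio of -0.96 (1373 against 2662), and against SM22-rtTA alone -0.42 (1373 against 1838), the second short of 1.5-fold. All 4 other pools were above the hypoxic one. No raised-pressure pool had the highest Edn1 of the 5.

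The 2 raised-pressure pools were also compared with each other. Edn1 was 1.37-fold higher in the induced pool than in the hypoxic pool, 1884 against 1373, a log2 ratio of 0.46 that 15.7% of measured genes exceeded. It is under 1.5-fold, and 0 of 3 endothelin genes were apart, where 10.7% of measured genes were higher and 11.4% lower in the induced pool. With values as deposited, 65.1% of the genes apart were higher in the induced pool, compared with 48.4% after scaling, and the Edn1 ratio was 0.58.

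**Figure D2:**
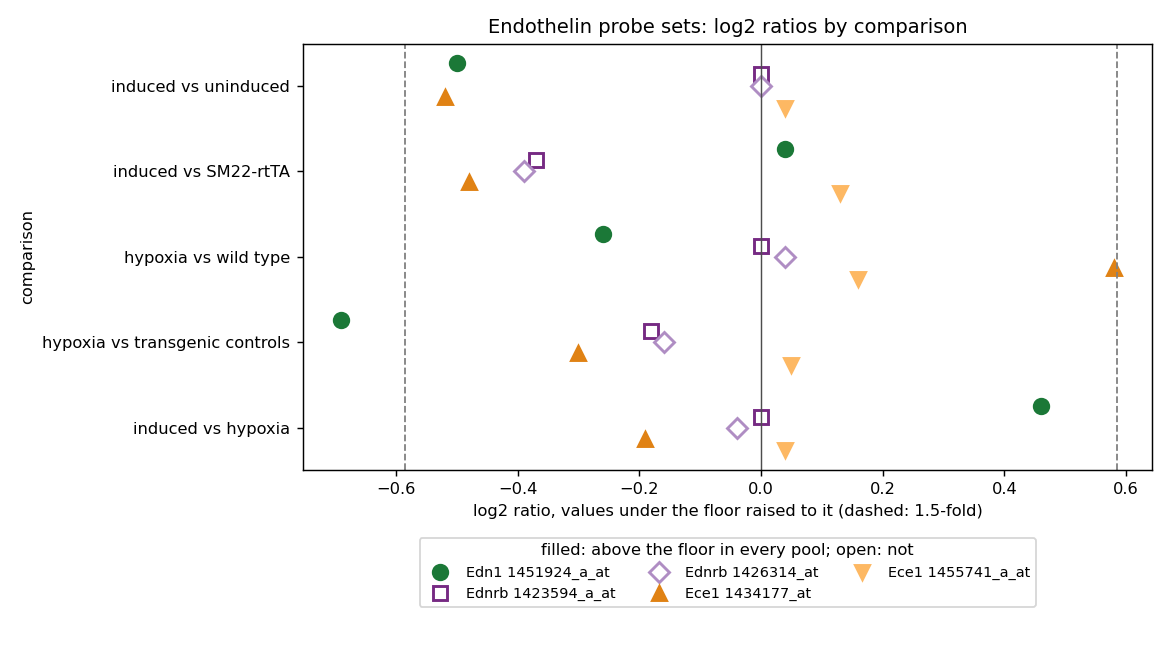
Log2 ratios of the 5 endothelin probe sets (horizontal axis) in 5 comparisons (vertical axis), with values under the noise floor raised to it; dashed lines mark 1.5-fold, and open symbols mark Ednrb, whose ratios rest on values at the floor and are 0 where both sides were under it. Edn1 passes the lower line in hypoxia against the transgenic controls (-0.69), and the Ece1 probe sets lie 0.56 apart in induction against the uninduced pool.

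Edn1 is made by endothelial cells, so its ratios were placed beside 23 measured endothelial marker genes. In the induced pool against the uninduced pool, the endothelial median was -0.28, with 4 of 23 called lower and 0 higher, beside 1.32% of measured genes lower and 3.26% higher, and 8 of the 23 had a lower ratio than Edn1. Among those 8 were the adhesion molecule Pecam1 (1501 against 2619), the co-receptor Eng and the capillary diaphragm protein Plvap. Alveolar markers were low there too, with a median of -0.44 for type 1 genes and -0.43 for type 2 genes. In each of these lists 7 of 7 were below 0. The 6 capillary genes described with Ednrb below had a median of -0.3, with 5 of 6 below 0. Medians were not low for the other lung lists, at 0.12 for smooth muscle and pericyte, 0.13 for fibroblast and 0.03 for club cell genes. Single genes of these lists were called either way. Of 10 fibroblast genes 2 were lower and 1 higher, and of 17 smooth muscle and pericyte genes 1 was lower and 3 higher. Against SM22-rtTA the endothelial median was -0.33, with 9 of 23 lower and 0 higher by the 1.5-fold rule, beside 6.11% of measured genes lower and 9.72% higher. Edn1 was at 0.04 in that comparison, and 18 of the 23 had a lower ratio.

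In hypoxia Edn1 lay near the low end of the endothelial genes. Against wild type the endothelial median was 0.41, with 21 of 23 above 0, while Edn1 was at -0.26, a difference of -0.67. Against the transgenic controls the endothelial median was -0.02 and the difference was -0.67 again; the hypoxic array is common to both values. Plvap was the 1 endothelial gene of 23 with a lower ratio than Edn1 in each of these comparisons. A difference of this kind lies within an array and is not moved by a shift of that array's scale. Other lung lists stood near the endothelial one against the transgenic controls, with a median of 0.04 for alveolar type 1 markers, 0.02 for alveolar type 2 markers and 0.00 for smooth muscle and pericyte markers. Against wild type these medians were 0.56 for alveolar type 1 markers, with 7 of 7 above 0, 0.12 for alveolar type 2 markers and 0.46 for smooth muscle and pericyte markers. The median of all measured genes was 0.00 against the transgenic controls and 0.03 against wild type.

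**Figure D3:**
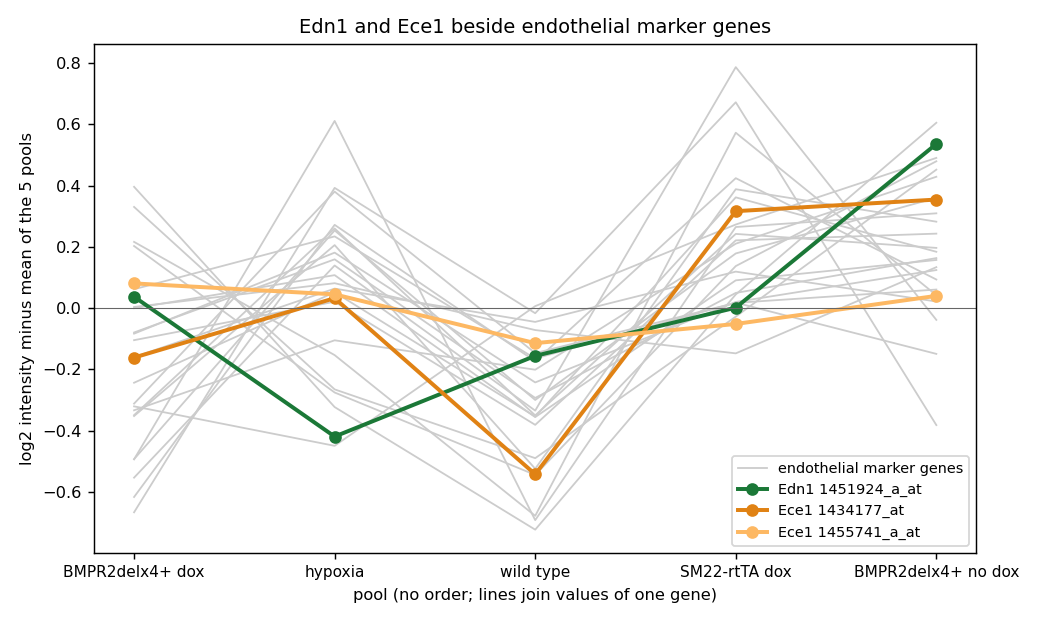
Log2 intensity minus the mean of the 5 pools (vertical axis) for Edn1, both Ece1 probe sets and, in grey, the 22 endothelial marker genes above the floor in all pools; the pools on the horizontal axis have no order and lines join the values of a gene. Edn1 is at its lowest in hypoxia, as is 1 of the 22 endothelial genes, and Ece1 1434177_at is lowest in wild type, as are 13 of the 22.

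The receptor gene Ednrb was weak on these arrays. Probe set 1423594_a_at was at 113 in the induced pool, 239 in the hypoxic pool, 203 in wild type, 356 in SM22-rtTA and 185 in the uninduced pool. Probe set 1426314_at was at 199 in the induced pool, 283 in the hypoxic pool, 262 in wild type, 363 in SM22-rtTA and 258 in the uninduced pool. The first was above the floor of 276 in 1 pool and the second in 2, so most of these values are bounds rather than measurements. SM22-rtTA was highest by both probe sets and the 1 pool above the floor in both; values under the floor have no order.

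With values under the floor raised to it, the induced pool was at least 1.29-fold below SM22-rtTA by 1423594_a_at and at least 1.31-fold by 1426314_at, which stands for the gene. Against the uninduced pool both probe sets were under the floor in both pools, so no fold is given. In hypoxia against wild type the ratio of 1426314_at was at least 1.02-fold, with wild type under the floor. No call was made for Ednrb in any of the 5 comparisons. Genes known to accompany Ednrb in mouse lung capillaries were measured as well. The carbonic anhydrase Car4 was at 1825 in the induced pool and 2524 in the uninduced pool, and at 2637 in hypoxia and 3718 in wild type. The peptide gene Apln was at 491 in the induced pool, against 914 in SM22-rtTA and 637 in the uninduced pool. In these 6 capillary genes 0 were called in either matched comparison, with medians of -0.30 for induction and 0.37 for hypoxia. In hypoxia against wild type Car4, at -0.5, was the 1 gene of the 6 below 0, and the other 5 were above 0. In induction against the uninduced pool 5 of the 6 were below 0 and 1 was above. Against SM22-rtTA, 2 of the 6 were lower in the induced pool, beside 6.11% of measured genes, and 0 were higher, with a median of -0.21. They were Apln, at -0.90, and the transcription factor gene Tbx2, at -0.71. In the same comparison 3 of the 6 were above 0, Fibin at 0.37, Chst1 at 0.27 and Kitl at 0.01.

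Markers of melanocytes, which also carry the Ednrb product, were under the floor in all pools for Dct, Tyrp1 and Tyr. Of that list of melanocyte and glial genes, 1 of the 5 on the table was measured, the neural crest factor Sox10. It was at 620 in the induced pool, 666 in hypoxia, 742 in wild type, 331 in SM22-rtTA and 486 in the uninduced pool.

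The processing enzyme gene Ece1 gave 2 different pictures by probe set. Probe set 1455741_a_at, the brighter one, was level: 2088 in the induced pool, 2037 in hypoxia, 1824 in wild type, 1905 in SM22-rtTA and 2030 in the uninduced pool. Its whole range was 1.14-fold. Probe set 1434177_at was at 1189 in the induced pool, 1360 in hypoxia, 913 in wild type, 1656 in SM22-rtTA and 1700 in the uninduced pool, a range of 1.86-fold. Both were above the floor everywhere. The SM22-rtTA and uninduced pools had nearly the same value by 1434177_at, and the other 3 pools were below both.

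By 1434177_at, Ece1 had a log2 ratio of -0.52 in the induced pool against the uninduced pool (1189 against 1700) and of -0.48 against SM22-rtTA (1189 against 1656). In hypoxia against wild type its ratio was 0.58 (1360 against 913, 1.49-fold), just under the 1.5-fold needed. Against the mean of the transgenic controls the hypoxic ratio was -0.30, so its direction depends on the control. By 1455741_a_at the same ratios were 0.04, 0.13, 0.16 and 0.05. With the mean of both probe sets, Ece1 was at -0.24 in induction against the uninduced pool and at 0.37 in hypoxia against wild type, and was not called. The difference between the 2 probe sets, 1434177_at minus 1455741_a_at on the log2 scale, was -0.56 for induction against the uninduced pool, 0.42 for hypoxia against wild type and 0.05 for SM22-rtTA against the uninduced pool. It was -0.77 for wild type against the mean of the transgenic controls. Ece1 has 4 start regions in RefSeq and is known for isoforms that differ at the amino end; which transcripts each probe set reads was not analysed here.

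The varying probe set was set beside the endothelial list. In wild type, 13 of the 22 endothelial genes above the floor in all pools were at their lowest, as 1434177_at was, and 10 of the 22 were highest in the uninduced pool, again as 1434177_at was. In the induced pool, 7 of the 22 were at their lowest. The endothelial median was -0.52 in wild type against the transgenic controls, beside -0.88 for 1434177_at and -0.11 for 1455741_a_at. In that comparison 9 of 23 endothelial genes were lower and 0 higher by the 1.5-fold rule, beside 10.1% of measured genes lower and 16.8% higher. Alveolar type 1 markers had a median of -0.55 there, 7 of 7 below 0, and smooth muscle and pericyte markers -0.49. The median was -0.22 for fibroblast markers, -0.1 for alveolar type 2 markers and 0.07 for club cell markers.

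Edn1 and Ece1 did not move as a pair by the gene-level probe set. The log2 ratio of Edn1 minus that of Ece1 (1455741_a_at) was -0.54 in induction against the uninduced pool, -0.10 in induction against SM22-rtTA, -0.42 in hypoxia against wild type and -0.74 in hypoxia against the transgenic controls. With 1434177_at these differences were 0.02, 0.51, -0.84 and -0.38. In hypoxia the Edn1 ratio was below that of Ece1 by either probe set, while in induction against the uninduced pool it was below by 1455741_a_at and level by 1434177_at.

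**Figure D4:**
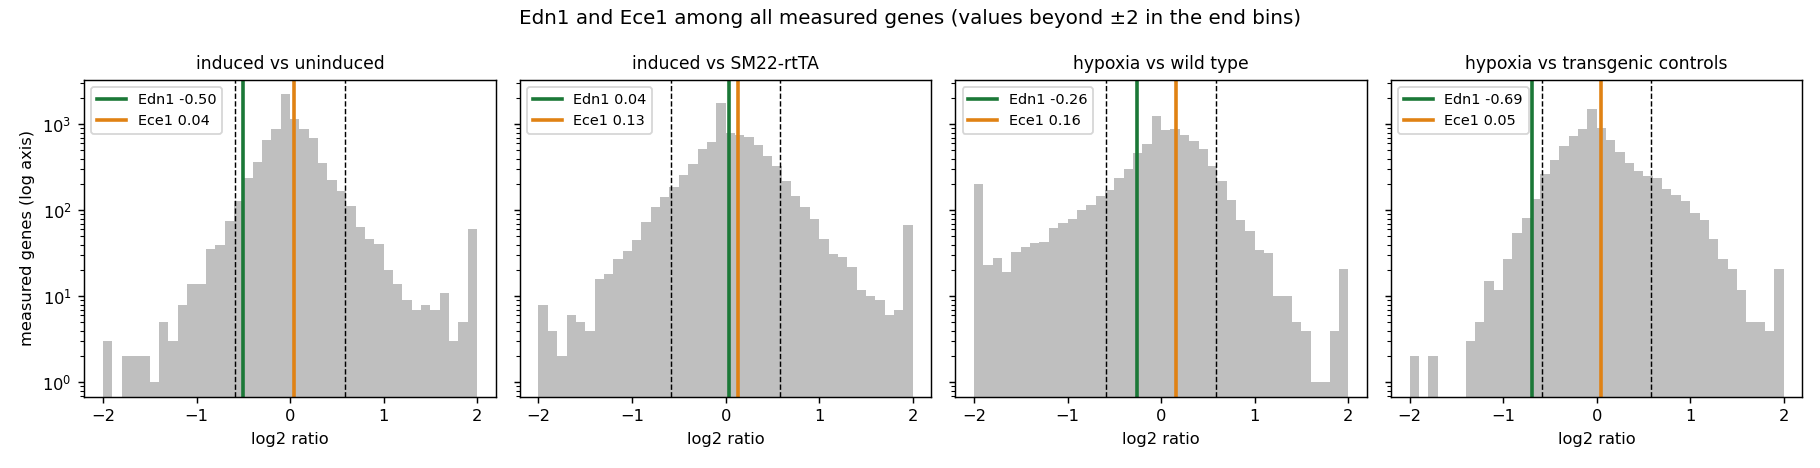
Number of measured genes (log axis) by log2 ratio in 4 comparisons, with Edn1 and the gene-level Ece1 probe set as vertical lines and 1.5-fold dashed. Edn1 lies at -0.50, 0.04, -0.26 and -0.69 and Ece1 at 0.04, 0.13, 0.16 and 0.05, and Edn1 passes the dashed line in hypoxia against the transgenic controls.

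The remaining ligands were not seen in these lungs. Edn2 was between 76 and 155 and Edn3 between 84 and 192 over its 2 probe sets, all under the floor. Of the other metalloproteases of the family, Ecel1 and the blood group protease Kel, which can cut big endothelin-3, were under the floor as well. Ece2, a relative of Ece1 that works in acidic compartments, was called higher in hypoxia by its brighter probe set. It was at 359 in the induced pool, 519 in the hypoxic pool and 315 in wild type, with 177 in SM22-rtTA and 246 in the uninduced pool under the floor. The log2 ratio in hypoxia was 0.72 against wild type and at least 0.91 against the transgenic controls. Its second probe set was between 95 and 148, under the floor throughout. Neprilysin (Mme), which degrades endothelin-1, was at 862 in the induced pool, 1077 in hypoxia, 798 in wild type, 1093 in SM22-rtTA and 963 in the uninduced pool, and was not called. Its other probe set was above the floor in SM22-rtTA alone, at 715, and between 133 and 249 elsewhere. In all, 2 of these 6 genes were measured, and 1 was called higher and 0 lower in hypoxia against wild type, beside 4.19% and 4.82% of measured genes. In induction 0 were called, beside 3.26% higher and 1.32% lower.

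Endothelin receptors act through G proteins and calcium release. Of 30 listed genes of this signalling, 26 were on the table and 21 were measured. In induction 0 of the 21 were called, beside 3.26% of measured genes higher and 1.32% lower, and the median ratio was -0.13. For the induced pool against SM22-rtTA, 1 of the 21 was higher and 3 were lower by the 1.5-fold rule, with a median of 0.0. Of measured genes, 9.72% were higher and 6.11% lower there. In hypoxia against wild type 3 of 21 were called higher and 0 lower, beside 4.19% of measured genes higher and 4.82% lower, with a median of 0.27. Of the 3, Rgs2, which quenches Gq signals, was at 3293 in hypoxia and 1839 in wild type. In hypoxia against the transgenic controls 0 of the 21 were apart, beside 12.1% of measured genes higher and 4.16% lower, and the median was -0.06.

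Genes of the dilator pathways that oppose endothelin were counted for the same comparisons. Of 9 measured, 2 were called lower and 0 higher in induction, with a median of -0.50, beside 1.32% of measured genes lower and 3.26% higher. In hypoxia against wild type 1 was called higher and 0 lower, with a median of 0.38, beside 4.19% higher and 4.82% lower. The 2 lower genes were the nitric oxide receptor subunits Gucy1a1 and Gucy1b1, and Gucy1b1 was also the gene called higher in hypoxia (2238 against 1442). Against SM22-rtTA the same subunit genes were lower in the induced pool, at -2.23 and -0.79, while Nos3, at 0.66, and the clearance receptor gene Npr3, at 1.0, were higher; the list median was -0.36, beside 6.11% of measured genes lower and 9.72% higher. Hypoxia against the transgenic controls gave a list median of 0.11, with 1 gene higher, the natriuretic peptide receptor Npr1, and 0 lower, beside 12.1% and 4.16% of measured genes. Endothelial nitric oxide synthase, Nos3, which the Ednrb product activates, was at 528 in the induced pool, against 523 in the uninduced pool and 334 in SM22-rtTA, and at 599 in hypoxia and 512 in wild type. Chosen after its values were seen, adrenomedullin (Adm), a dilator peptide, was at the floor in the induced, hypoxic and wild-type pools, against 396 in SM22-rtTA and 428 in the uninduced pool.

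The genes most like Edn1 over the 5 pools were Mxd4, Fkbp8 and Tbc1d15. Likeness was the root mean square difference of log2 values, centred on each gene's mean, among 5903 other genes above the floor in all pools, and was 0.054, 0.066 and 0.085. Mxd4 was at 2200 in the induced pool, 1600 in hypoxia, 1811 in wild type, 2164 in SM22-rtTA and 2855 in the uninduced pool. For the level Ece1 probe set, Pot1a, Scgb3a2 and Rplp2 were nearest, with 0.023, 0.024 and 0.027. That probe set has a nearly flat profile, so these are flat profiles too. Ednrb was not placed, being under the floor in 3 pools.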

How the data were processed

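Total RNA from whole lung was pooled within each of 5 conditions and hybridised after biotin labelling, 1 array a condition, per the labels and design text. The deposited values are linear intensities, 1 for each of 22626 probe sets. How the authors summarised, background-corrected and scaled them is not given in the sources used here. No deposited intensity was under 50. Log2 values were shifted by -0.11 to 0.13 so that the arrays shared a median over 9046 probe sets above the median of every array, and values under 276 were raised to that floor. The number of arrays limits the precision, and no test was run. Gene names came from the platform annotation; of 20380 probe sets with 1 gene, 20351 had the symbol refreshed through the gene ID (RefSeq, GRCm38.p6, used for names and for the positions and start regions printed). Another 691 probe sets had several genes and 1555 none. The probe set with the highest mean stood for its gene.

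Named genes were the members, the other ligands and proteases, called members of the signalling and dilator lists (or the 2 brightest), the first markers of each list, and the 3 nearest profiles; some named members of the signalling list are not reported here. The members and lists were chosen with earlier results of these data known. Alternatives covered scaling, floor, pseudocount, fold, probe set summary and the normal-pressure range. Python 3.11.15 with pandas 2.3.3 and numpy 2.4.6 was used.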

Additional observations from a re-analysis of the deposited data

Results flagged for a closer look

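The 5 endothelin probe sets, the first 3 endothelial markers and 3 further lists were screened for opposite directions. The lists had 6 ligand and protease genes, 26 signalling genes and 10 dilator genes on the table. In 1 endothelin probe set and 5 of the other genes, induction and hypoxia ran in opposite directions against their matched controls by more than the scatter of 0.34 in each. With 1 pool a group, the difference between these effects was not tested. The SD was larger, 0.6, for wild type against the mean of the SM22-rtTA and uninduced pools. Under it lie the ratios to wild type in hypoxia of Ece1 1434177_at (0.58), Ptgis (0.38) and Npr3 (0.45). For Ece1 by 1434177_at, the ratios were -0.52 in induction and 0.58 in hypoxia against wild type, a difference of -1.09; against the transgenic controls hypoxia was at -0.30, so the opposition holds for the wild-type control and not for the other. For Gucy1a1 and Gucy1b1 the difference was -1.31 each, with hypoxia at 0.11 against the transgenic controls. For Pecam1 it was -2.11, with 0.32 against those controls. For the prostacyclin synthase Ptgis it was -0.79, with -0.22 there. For the natriuretic peptide clearance receptor Npr3 it was -1.46, and induction against SM22-rtTA was 1.0 where it was -1.0 against the uninduced pool. The wild-type pool, which also held kidney genes, was low for 13 of the 22 endothelial genes above the floor throughout; its part in these differences was not tested. Marker genes beyond that screen also ran lower in induction and higher in hypoxia by more than 0.34 in each. Of all 23 measured endothelial genes, Pecam1 included, 9 did so, as did 4 of 7 alveolar type 1 genes. So did 2 of 7 alveolar type 2, 3 of 10 fibroblast, 2 of 17 smooth muscle and pericyte and 0 of 6 club cell genes. The share over all measured genes was not counted, so whether the counts of the screen or of these lists are unusual is not known. Among the 9 endothelial genes were Icam2, at -0.85 and 0.55, and Cldn5, at -0.63 and 0.73. Of the first 3 endothelial markers, Cdh5, at -0.18 and 0.11, and Kdr, at 0.17 and 0.52, were not among the 9.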

How the results depend on the processing

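No paired analysis was possible because each group is 1 pool. Of 90 member log2 ratios under other settings, 86 moved by less than 0.34; the other 4 are Ednrb with another floor. With the floor at the 30th percentile (intensity 132), Ednrb was at -0.37 in induction, -0.87 against SM22-rtTA and -0.51 against hypoxia, and 1 endothelin gene, Ednrb, was then apart from SM22-rtTA, as with a pseudocount of 100; at the 70th percentile its ratio was 0. Edn1 in hypoxia against the transgenic controls stayed between -0.86 and -0.65 over 6 settings and was apart in all 6; at 2-fold, and against SM22-rtTA alone (chosen after seeing the data), 0 endothelin genes were apart. Each probe set by itself, also chosen then, changed no count in a matched comparison. For all genes, the counts of calls in induction (393), against SM22-rtTA (1360), in hypoxia (774), against the transgenic controls (1400) and between the raised-pressure pools (1901) were 240, 782, 433, 532 and 954 at the 70th percentile and 150, 364, 285, 351 and 436 at 2-fold. The last 2 were 2576 and 2985 at the 30th percentile, and the fourth was 903 with the mean of probe sets. Without the normal-pressure range, induction had 654 and hypoxia 1674; with wild type left out of the range, induction had 616. The cause was not tested beyond what each setting does by construction.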
